A study of Mus musculus with 90 samples.

Results

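DP CD8 cells are the tumour CD8 T cells sorted here as PD-1 high and TIM-3 positive. This account sets the DP cells of DKO mice against the DP cells of yfp mice, chosen by their column names in the deposited count table. It compares 7 of the 90 libraries of the series: 4 of DKO and 3 of yfp. The main fit took in all 12 DP libraries, so those of other genotypes also bear on its batch terms and its spread. The series profiled mouse CD8 T cells from animals whose regulatory T (Treg) cells lacked IL-10, IL-35 or both, together with Treg cells sorted by those cytokines. CD8 cells were sorted a second time for purity, lysed directly, and made into libraries with a SMART-Seq and a Nextera XT kit.

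The DKO label is read as the deletion of both cytokines in Treg cells, after the design text. The labels Il10 (2 DP libraries) and Ebi3L (3 DP libraries) are read as the single knockouts, and yfp, which carries no knockout name, as the control genotype. All 12 DP libraries came from tumours. The labels used here give no age, no tumour model, no driver of the deletion and no statement of pooling. Nothing says that the libraries of a genotype came from separate animals, so the p-values below measure the spread between these libraries.

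PD-1 and TIM-3 together mark the most exhausted CD8 T cells of tumours and chronic infections. Such cells keep high levels of inhibitory receptors, depend on the transcription factor Tox, and lose the memory-like factor Tcf7 and the ability to make many cytokines. IL-10 and IL-35, a heterodimer of the Ebi3 and Il12a products, are inhibitory cytokines that Treg cells release. The comparison asks what the DP cells transcribe when the Treg cells around them lack both.

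The 4 DKO libraries held 27.2 to 31.1 M counted reads and the 3 yfp libraries 28.6 to 35.9 M. Levels below are CPM, read counts scaled to a common library size after the trimmed mean of M values. The batch labels overlap only in part, since DKO replicates 1, 3 and 4 and yfp replicates 1 and 2 are in batch 1, DKO replicate 2 is in batch 2 and yfp replicate 3 in batch 3. Batch was therefore a term of the fit. The cells carried the genes of their sort: Cd8a was at 641 to 1034 CPM in DKO and 1171 to 1506 CPM in yfp libraries, and Pdcd1, which encodes PD-1, at 1167 to 1619 CPM in DKO and 856 to 1317 CPM in yfp. Cd8a was lower in every DKO library, with a log2 difference of -0.31 ± 0.16 (SE, edgeR adjusted p = 0.943). Of 6 CD8 T cell markers tested, 2, Cd8a and Cd3g, were lower in every DKO library, against 4.06% of all genes, and 0 were higher. Foxp3, the Treg factor, was at 0.0633 to 0.419 CPM in DKO and 0 to 0.114 CPM in yfp. The B cell genes Ms4a1 and Pax5 were at 0 in all 7 libraries, as were 5 of 20 myeloid markers (C1qa, Emr1, Fcgr1, S100a8 and S100a9). Among the 3 B cell markers tested, 2 had a positive and 1 a negative difference, and 0 separated the groups. Their median was 3.86 on the log2 scale, at low levels. Of the 13 myeloid markers tested, 11 had a positive difference, with a median of 1.82 on the log2 scale, against 0.01 over all genes tested. Only 1 of the 13, Cd14, was lower in every DKO library, against 4.06% of all genes, and 0 were higher. Cd68 was at 7.51 to 17.6 CPM in DKO and 8.21 to 12.6 CPM in yfp libraries, and Itgax at 0 to 51.4 CPM in DKO and 0.339 to 1.77 CPM in yfp. The batch 3 libraries differed from the rest, among them yfp replicate 3. Its summed ribosomal protein genes were at 60433 CPM, against 25590 and 26904 CPM in the other yfp libraries and 23944 to 29253 CPM in DKO. They were at 61913 and 60142 CPM in the batch 3 Ebi3L libraries. The yfp means and SDs below include yfp replicate 3. DKO replicate 3 stood apart from the other DP libraries, as did Ebi3L replicate 3. The summed myeloid markers of DKO replicate 3 reached 860 CPM, against 152 to 244 CPM in the other DKO libraries and 47.1 to 292 CPM in yfp, most of it Cd74 and the MHC class II genes H2-Aa, H2-Ab1 and H2-Eb1. Its summed B cell markers reached 19.6 CPM, most of it Cd79b. The sum was 3.67, 4.86 and 1.779 CPM in DKO replicates 1, 2 and 4 and 0 to 1.771 CPM in yfp libraries. It was thus higher in every DKO library, by a very narrow gap. The part of these transcripts in the results was not tested.

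The deletions are labelled as those of Treg cells, so the levels of Il10 and Ebi3 in CD8 cells do not check the labels. Ebi3 was at 0.483, 0.326, 0 and 0.140 CPM in the 4 DKO libraries, from at most 15 reads each, and at 2.31, 2.18 and 2.64 CPM in the 3 yfp libraries, from 66 to 81 reads each. All 4 DKO libraries lay below all 3 yfp libraries, with a log2 difference of -3.95 ± 1.39 (SE) and an adjusted p of 0.93. In the SP cells, tumour CD8 cells that are PD-1 high and TIM-3 negative, Ebi3 was at 0.153 to 1.48 CPM in DKO and 10.9 to 26.5 CPM in yfp libraries. Ebi3 was at 15.6 and 5.97 CPM in the Il10 and at 0.136, 0.0401 and 0 CPM in the Ebi3L DP libraries, so it was low in both genotypes named for its loss. Il10 was at 0.0966, 0.682, 49.7 and 3.80 CPM in DKO and 8.06, 1.32 and 3.73 CPM in yfp libraries, and the groups overlapped. Il12a was at 0 in all 4 DKO libraries and in 2 of 3 yfp libraries.

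No gene passed the test between DKO and yfp DP cells. edgeR's quasi-likelihood test with batch as a term, over 12943 genes, gave 0 genes at a Benjamini-Hochberg adjusted p under 0.05, and the lowest adjusted p was 0.114. At an unadjusted p under 0.05 there were 680 genes, 5.25% of those tested, of which 384 (2.97%) were higher and 296 (2.29%) lower in DKO. Such a share is near the threshold itself. DESeq2 on the same 12 DP libraries called 128 of 12898 genes, or 0.992%, with 81 higher (0.628%) and 47 lower (0.364%) in DKO. Only 61 of these 128 had groups of libraries that did not overlap, and 82 had an edgeR unadjusted p under 0.05. Its smallest p-values were those of extreme fits with overlapping groups, such as Sh3bp4, Hecw1 and Slc2a10 with log2 differences of 29.98, -30 and -30. A limma-voom fit over all 60 CD8 libraries, added after the data had been seen, called 49 genes, or 0.333%, with 27 higher (0.183%) and 22 lower (0.149%) in DKO, and shared 28 of the 49 with DESeq2. Values below are therefore given library by library. For 562 genes (4.34%) every DKO library lay above every yfp library, and for 525 genes (4.06%) every DKO library lay below. Without the trimmed-mean scaling these were 746 genes (5.76%) higher and 323 genes (2.5%) lower.

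The 10 genes with the smallest p-values among those higher in DKO included a membrane protein, regulators of vesicle traffic and a nuclear receptor. Cd9, a tetraspanin of the cell surface, was at 103, 92.8, 136 and 150.1 CPM in DKO and 36.3, 31.6 and 76.2 CPM in yfp libraries. The groups did not overlap, and the log2 difference was 1.73 ± 0.29 (edgeR adjusted p = 0.221). DESeq2 and the 60-library fit both called Cd9 higher in DKO. Cd81, another tetraspanin, is not among the 10, and is named after its values were seen. It was at 272, 189, 350.1 and 99.2 CPM in DKO and 24.2, 33.6 and 47.8 CPM in yfp libraries, and both other tools called it higher.

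Sytl1, a synaptotagmin-like protein that binds Rab27 on secretory vesicles, was at 31.3, 41.1, 39.0 and 39.8 CPM in DKO and 13.7, 8.87 and 4.95 CPM in yfp libraries. Rab4a, a small GTPase of recycling endosomes, was at 32.2, 40.8, 25.1 and 29.3 CPM in DKO and 3.37, 3.76 and 5.93 CPM in yfp libraries. Tbc1d4, a Rab GTPase-activating protein of glucose transporter traffic, was at 64.1, 21.6, 54.3 and 29.2 CPM in DKO and 5.2, 7.38 and 10.07 CPM in yfp libraries. Each of these 3 genes was higher in all 4 DKO libraries than in all 3 yfp libraries. The log2 differences were 1.87 ± 0.32 for Sytl1, 2.66 ± 0.55 for Rab4a and 2.89 ± 0.57 for Tbc1d4, with edgeR adjusted p-values of 0.221, 0.59 and 0.507.

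Slc39a4, a zinc importer, averaged 64.0 ± 13.7 CPM in DKO (SD, n = 4) and 25.2 ± 3.78 CPM in yfp (SD, n = 3). Ctsz, a lysosomal cathepsin, averaged 101 ± 23.1 CPM in DKO and 50.1 ± 11.2 CPM in yfp, and Ubxn11, a UBX domain protein, 70.6 ± 17 CPM in DKO and 29.1 ± 5.47 CPM in yfp. Plk2, a polo-like kinase induced by stimuli, averaged 55.4 ± 32.2 CPM in DKO and 9.06 ± 3.19 CPM in yfp. None of these overlapped between the groups. Nr4a1, an orphan nuclear receptor induced by T cell receptor signals, was at 97.4, 50.6, 102 and 72.4 CPM in DKO and 42.4, 15.8 and 3.93 CPM in yfp libraries, with a log2 difference of 1.60 ± 0.37. Pparg, a nuclear receptor of lipid metabolism, was at 4.57, 2.73, 6.33 and 3.07 CPM in DKO, with no read in any yfp library. Its DKO mean was at least 41.1-fold higher than the level that 3 reads give in a yfp library, 0.102 CPM.

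The 10 genes with the smallest p-values among those lower in DKO included a receptor, an adaptor protein and the exhaustion factor Tox. Wdfy1, a FYVE domain protein of early endosomes, was at 14.9, 16, 23.7 and 29.1 CPM in DKO and 85.7, 73.2 and 89.6 CPM in yfp libraries. The log2 difference was -2.01 ± 0.30, with an adjusted p of 0.114 by edgeR, and it was lower in DKO by both DESeq2 and the 60-library fit. Tox was at 222, 128, 157 and 155 CPM in DKO and 324, 370.4 and 267 CPM in yfp libraries, without overlap. Its log2 difference was -1.09 ± 0.23 (edgeR adjusted p = 0.627). DESeq2 called Tox lower in DKO, whereas the 60-library fit gave an adjusted p of 0.0523.

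Cd244, which encodes the SLAM family receptor 2B4, was at 37.2, 19.1, 35.7 and 81.9 CPM in DKO and 128, 134 and 130.2 CPM in yfp libraries. Sla2, an adaptor that dampens T cell receptor signals, was at 134, 95.9, 103 and 138 CPM in DKO and 200.1, 277 and 266 CPM in yfp libraries. Both were called lower in DKO by DESeq2 and by the 60-library fit. The log2 differences were -1.53 ± 0.35 for Cd244 and -1.0 ± 0.22 for Sla2.

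Serpina3f and Serpina3g, neighbouring serine protease inhibitor genes on chromosome 12, were both lower. Serpina3f averaged 33.3 ± 9.41 CPM in DKO and 87.0 ± 32.6 CPM in yfp, and Serpina3g 219 ± 59.2 CPM in DKO and 469 ± 106 CPM in yfp. They belong to a family of closely similar copies, between which the counting could split reads, so these values are uncertain. Hmgn2, a nucleosome-binding protein, averaged 126 ± 30.7 CPM in DKO and 418 ± 186 CPM in yfp. Sh3bgrl3, a small thioredoxin-like protein, was at 471, 468, 449 and 503 CPM in DKO and 767, 822 and 2573 CPM in yfp libraries. The high value of Sh3bgrl3 was that of the batch 3 library, and the Ebi3L libraries of batch 3 were at 2017 and 2301 CPM. Fitted with batch, its log2 difference was -0.74 ± 0.10, with an adjusted p of 0.114. The last gene, the zinc finger gene Zfp820, was at 2.83 CPM or less in every DKO and yfp library, and its ranges overlapped.

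**Figure D1:**
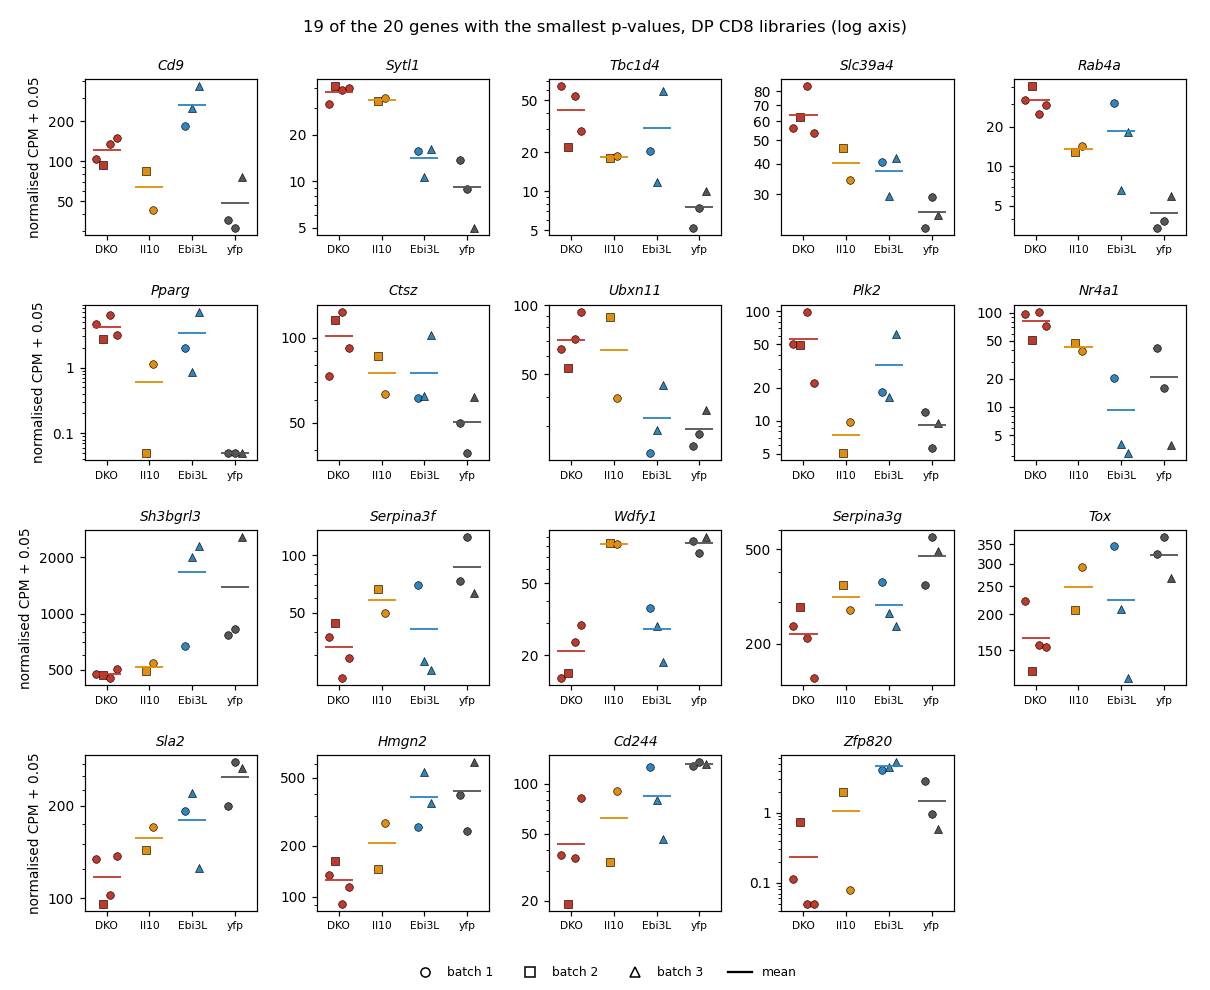
Normalised CPM plus 0.05 on a log axis of 19 of the 20 genes with the smallest p-values, with 1 point per DP library of DKO, Il10, Ebi3L and yfp, the shape giving its batch and the line the mean. Cd9 lies between 92.8 and 150.1 CPM in DKO and between 31.6 and 76.2 CPM in yfp; Wdfy1 lies between 14.9 and 29.1 CPM in DKO and between 73.2 and 89.6 CPM in yfp.

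Of 20 memory and stem-like genes, 8 were higher in every DKO library than in every yfp library and 0 were lower, against 4.34% of all genes higher. The 8 were Tcf7, Ccr7, S1pr1, Slamf6, Bach2, Bcl6, Id3 and Satb1, and the median log2 difference of the 20 was 1.54, against 0.01 over all genes tested. None passed edgeR's test. DESeq2 called Slamf6 and Satb1 higher, and the 60-library fit called neither, with adjusted p-values of 0.0587 and 0.702. Tcf7, the transcription factor of stem-like exhausted cells, was at 8.60, 10.7, 34.4 and 4.57 CPM in DKO and 0.229, 1.81 and 0.678 CPM in yfp libraries. These are low levels, and the log2 difference of 4.39 had an SE of 1.75 (edgeR adjusted p = 0.935). Slamf6, a surface marker of the stem-like cells, was at 53.3, 72.5, 81.7 and 100.2 CPM in DKO and 37.9, 9.69 and 8.64 CPM in yfp libraries.

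Ccr7, the receptor that guides T cells to lymph nodes, was at 129, 129, 176 and 49.4 CPM in DKO and 7.97, 34.5 and 5.66 CPM in yfp libraries. Satb1, a chromatin organiser, was at 24.5, 24, 62.3 and 99.7 CPM in DKO and 21.8, 7.25 and 6.44 CPM in yfp libraries. The closest pair of libraries therefore differed little for Satb1, while Ccr7 was apart by a wider margin. Bach2, Bcl6 and Id3, transcription factors of memory and follicular programmes, stayed at 10.8 CPM or less in every DKO library and at 3.02 CPM or less in every yfp library. S1pr1, the receptor for egress from tissue, was at 26.1 CPM in DKO replicate 4 and 7.06 to 7.66 CPM in the other DKO libraries, against 0 to 4.83 CPM in yfp. Il7r, the IL-7 receptor, was at 20.8, 74.6, 62.6 and 27.3 CPM in DKO and 12.1, 21.5 and 12.3 CPM in yfp libraries and overlapped narrowly. In bulk samples, more cells of one kind and more RNA per cell cannot be told apart.

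Of 18 effector cytokines and chemokines, 6 were higher in every DKO library than in every yfp library and 0 were lower, against 4.34% of all genes higher and 4.06% lower, with a median log2 difference of 1.58. They were Il2, Csf2, Ccl1, Tnfsf8, Tnfsf9 and Tnfsf11. Csf2, which encodes GM-CSF, was at 447, 362, 1186 and 188 CPM in DKO and 30.1, 49.8 and 57.0 CPM in yfp libraries. Ccl1, a ligand of the receptor Ccr8, was at 269, 527, 1422 and 382 CPM in DKO and 17.9, 80.0 and 107 CPM in yfp libraries. For both genes the lowest DKO library lay well above the highest yfp library. Their fitted differences were wide, 4.13 ± 1.83 for Csf2 and 3.87 ± 1.71 for Ccl1, with edgeR adjusted p-values of 0.935. DESeq2 called neither, with adjusted p-values of 0.22 for Csf2 and 0.226 for Ccl1, while the 60-library fit called both higher. Both were also high in Ebi3L replicate 3, at 1627 CPM for Csf2 and 2332 CPM for Ccl1.

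Il2, the growth factor of T cells, was at 0.870, 0.771, 146 and 8.27 CPM in DKO libraries, and the 3 yfp libraries held 2 Il2 reads between them. The high level was that of DKO replicate 3 alone. Tnfsf11 (RANKL) averaged 50.4 ± 42.6 CPM in DKO and 5.35 ± 2.14 CPM in yfp, Tnfsf8 (CD30 ligand) 71.0 ± 70.3 CPM in DKO and 9.22 ± 5.77 CPM in yfp, and Tnfsf9 (4-1BB ligand) 57.7 ± 8.32 CPM in DKO and 26.8 ± 6.99 CPM in yfp. Tnfsf11 and Tnfsf8 were highest in DKO replicate 3, while Tnfsf9 was more even across the DKO libraries. Xcl1, the chemokine that attracts cross-presenting dendritic cells, was at 261, 459, 1822 and 323 CPM in DKO and 51.4, 148 and 416 CPM in yfp libraries, and overlapped. Ifng was at 686, 203, 2119 and 851 CPM in DKO and 393, 269 and 575 CPM in yfp libraries, and Tnf at 11.5, 11.7, 58.9 and 10.12 CPM in DKO and 12.5, 8.17 and 6.98 CPM in yfp. Neither Ifng nor Tnf separated the groups. Ccl5 was at 239 to 1423 CPM in DKO and 896 to 1966 CPM in yfp libraries.

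The promoters of Ccl1 and Il2 are shown because the searched motif was found in them and in no other window searched among these 6 cytokine genes. The 250 bases before the start of each gene (RefSeq table, mm10, minus strand, 5′ to 3′ of the gene) carry in capitals each match to GGAAAA, the core that NFAT proteins bind, on either strand as GGAAAA or TTTTCC. Ccl1 lies at chr11:82179813-82180062 and Il2 at chr3:37125955-37126204.
Ccl1: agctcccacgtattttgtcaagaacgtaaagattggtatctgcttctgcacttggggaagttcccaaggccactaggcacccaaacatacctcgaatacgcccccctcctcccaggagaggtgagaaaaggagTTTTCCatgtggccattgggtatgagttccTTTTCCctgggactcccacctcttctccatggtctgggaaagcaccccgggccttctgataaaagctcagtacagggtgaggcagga
Il2: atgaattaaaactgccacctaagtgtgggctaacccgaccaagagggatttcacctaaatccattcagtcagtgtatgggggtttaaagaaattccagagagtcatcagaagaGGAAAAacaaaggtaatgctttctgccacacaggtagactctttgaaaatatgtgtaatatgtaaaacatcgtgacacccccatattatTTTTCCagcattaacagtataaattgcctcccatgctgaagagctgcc
Each window holds 2 matches, and none of the AP-1 motif TGANTCA. At least 1 match to GGAAAA is found in 20.6% of 27025 promoters of this length and in 18.6% of the 9532 whose genes were tested in DP cells. The windows of Tnfsf8 and Tnfsf11 hold neither motif. The window of Csf2 also holds neither, but its start did not match the transcripts used. Tnfsf9 had no RefSeq promoter entry and was not searched. The motifs were chosen after the values were seen, and a match is a description of the letters.

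Of 20 immediate early genes, which cells transcribe within minutes of a stimulus, 4 were higher in every DKO library and 0 were lower, against 4.34% of all genes higher, with a median log2 difference of 0.71. The difference was positive for 19 of the 20. Junb, an AP-1 subunit, was at 1294, 807, 992 and 723 CPM in DKO and 536, 523 and 368 CPM in yfp libraries. Egr2, a zinc finger factor downstream of the T cell receptor, was at 17.8, 36.6, 90.0 and 18 CPM in DKO and 9.11, 3.56 and 3.66 CPM in yfp libraries. Ier5 averaged 53.9 ± 8.11 CPM in DKO and 31.5 ± 4.18 CPM in yfp, and the phosphatase gene Dusp2 219 ± 39.7 CPM in DKO and 149.8 ± 28.0 CPM in yfp. All 4 separated the groups and none passed the test. Within batch 1 alone, where fewer libraries can only raise such a count, 13 of the 20 separated the groups, against 10.4% of all genes.

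DKO replicate 3, the DKO library that stood apart, was the highest DKO library for Tcf7, Ccr7, Il2, Csf2, Ccl1 and Egr2. Refitted without it, the median log2 difference was 1.58 for the memory list, 1.12 for the cytokine list, where 12 rather than 15 of 18 genes stayed positive, and 0.68 for the immediate early list, against 0.00348 over all genes. Refitted without yfp replicate 3, the only batch 3 library of the pair, the medians were 1.54, 1.64 and 0.66, and within batch 1 alone they were 1.70, 1.90 and 0.73. The genes that separate the groups can only stay or grow in number with fewer libraries. They were 8, 6 and 5 in the 3 lists without DKO replicate 3 (6.01% of all genes) and 9, 7 and 6 without yfp replicate 3 (7.06%), which is therefore no check of the pattern. The summed CD4 T cell and Treg markers, which include Il2ra and Cd40lg, were at 463 to 815 CPM in DKO and 366 to 582 CPM in yfp libraries. With all 7 libraries, 3 of the 7 markers, Il2ra, Zbtb7b and Cd40lg, were higher in every DKO library, against 4.34% of all genes. The median log2 difference was 1.36 over the list, against 0.01 over all genes tested. The 60-library fit called Cd40lg higher (adjusted p = 0.0283). Cd4 was at 0 in 3 of 4 DKO libraries and at most 1.04 CPM in DKO, and at 0.132 to 3.31 CPM in yfp. The part of other cells in these lists was not tested.

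**Figure D2:**
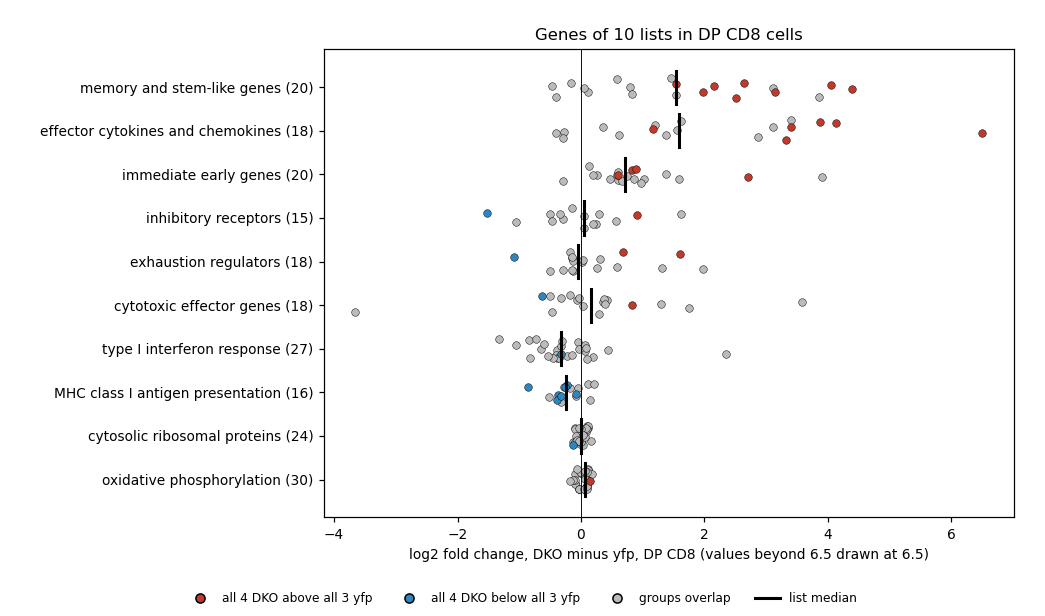
Log2 difference, DKO minus yfp, of each tested gene of 10 gene lists (1 point per gene, red or blue where all DKO libraries lie above or below all yfp libraries) with the median of each list as a bar; values beyond 6.5 are drawn at 6.5. The medians of the memory list (1.54) and the cytokine list (1.58) lie to the right of the median of all genes (0.01), and that of the MHC class I list (-0.25) to the left.

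The MHC class I antigen presentation list ran the other way. Of its 16 genes, 7 were lower in every DKO library than in every yfp library and 0 were higher, against 4.06% of all genes lower, and the median log2 difference was -0.25. They were B2m, the light chain of MHC class I, the immunoproteasome subunits Psmb8, Psmb9 and Psmb10, the proteasome activators Psme1 and Psme2, and H2-Q4. Psmb9 was at 289, 212, 212 and 271 CPM in DKO and 339.6, 312 and 758 CPM in yfp libraries, and Psme1 at 299, 298, 309 and 277 CPM in DKO and 400.3, 349 and 834 CPM in yfp. The batch 3 library held the highest yfp value of each, and the batch 3 Ebi3L libraries were also high, with Psmb9 at 634 and 559 CPM. With batch in the fit the differences were small: -0.39 ± 0.14 for Psmb9, -0.33 ± 0.11 for Psme1 and -0.23 ± 0.10 for B2m, with edgeR adjusted p-values of 0.933, 0.93 and 0.935. Refitted without DKO replicate 3, without yfp replicate 3 and within batch 1 alone, the median difference of the list was -0.19, -0.22 and -0.21. The genes lower in every DKO library, a count that fewer libraries can only keep or raise, were then 8, 9 and 9, against 5.59%, 7.7% and 11.2% of all genes. The summed NK cell markers were at 1977 to 4233 CPM in DKO and 3445 to 9536 CPM in yfp libraries, most of it Nkg7, which CD8 cells also express, and Ncr1 was at 0 in all of them. The 9536 CPM was that of the batch 3 yfp library, and the batch 3 Ebi3L libraries were at 9071 and 9715 CPM. Of the 5 NK markers tested, 3 had a positive and 2 a negative difference, with a median of 1.27 on the log2 scale. Only 1 of the 5, the signalling chain Fcer1g, was lower in every DKO library, against 4.06% of all genes. Fcer1g was at 4.35, 2.02, 0 and 18.7 CPM in DKO and 39.5, 32.5 and 124 CPM in yfp libraries. The part of the NK markers in the result was not tested.

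Of 27 type I interferon response genes, 20 had a negative difference and the median was -0.33, against 6323 of 12943 and 0.01 over all genes tested. Only 1 of the 27, Trim30a, a restriction factor, separated the groups. It was lower in DKO, and 1 of 27 is near the 4.06% of all genes. Trim30a was at 167, 104, 137 and 162 CPM in DKO and 231, 172 and 204 CPM in yfp libraries.

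**Figure D3:**
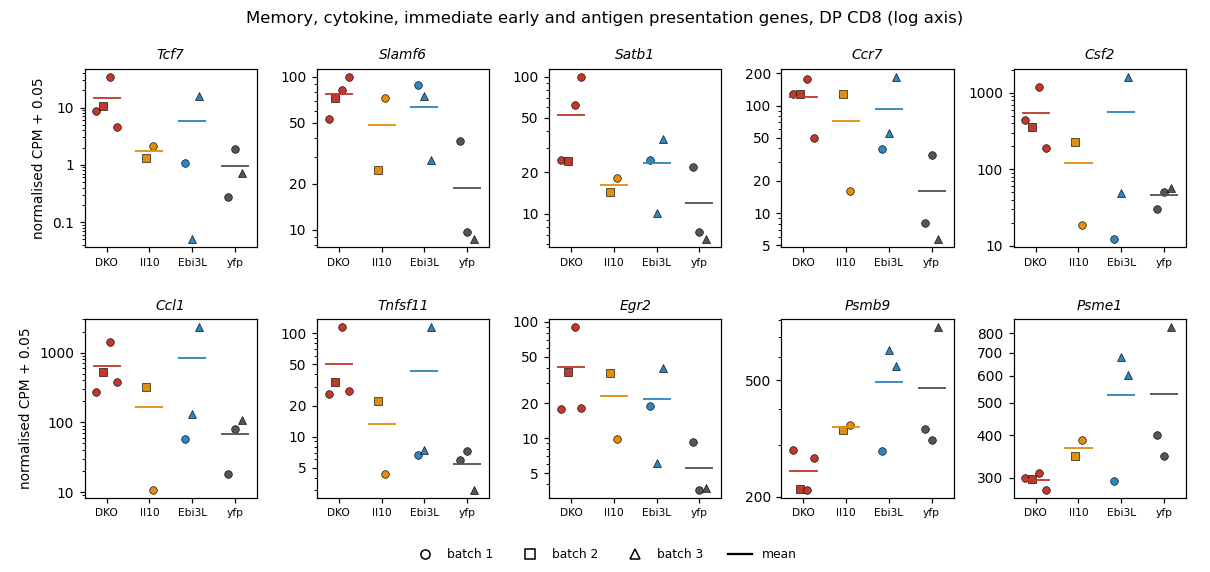
Normalised CPM plus 0.05 on a log axis of 10 genes of the memory, cytokine, immediate early and MHC class I lists, 1 point per DP library of DKO, Il10, Ebi3L and yfp, the shape giving its batch and the line the mean. Csf2 lies between 188 and 1186 CPM in DKO and between 30.1 and 57.0 CPM in yfp, and Psme1 between 277 and 309 CPM in DKO and between 349 and 834 CPM in yfp.

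Of 15 inhibitory receptors, which define exhausted cells, 1 was higher (Btla) and 1 lower (Cd244) in every DKO library, near the 4.34% and 4.06% of all genes, with a median log2 difference of 0.04. Pdcd1 was at 1556, 1540.2, 1619 and 1167 CPM in DKO and 1317, 1258 and 856 CPM in yfp libraries, with a log2 difference of 0.19 ± 0.19. Havcr2, which encodes TIM-3, differed by -0.29 ± 0.20, Tigit by -0.33 ± 0.19, Ctla4 by 0.05 ± 0.33 and Lag3 by 0.04 ± 0.45. Each of these overlapped between the groups. Entpd1, which encodes the ectonucleotidase CD39, was at 96.8, 43.6, 53.2 and 117 CPM in DKO and 178, 174 and 98.6 CPM in yfp libraries. Its ranges overlapped narrowly, its log2 difference was -1.05 ± 0.26 with an edgeR adjusted p of 0.627, and DESeq2 called it lower in DKO while the 60-library fit did not (adjusted p = 0.188).

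Of 18 exhaustion regulators, Nr4a1 and Bhlhe40 were higher and Tox lower in every DKO library, against 4.34% and 4.06% of all genes, and the median log2 difference was -0.05. Bhlhe40, a basic helix-loop-helix repressor, was at 1370.3, 904, 1108 and 1004 CPM in DKO and 783, 592 and 338 CPM in yfp libraries. Prdm1 (Blimp-1) differed by -0.18 ± 0.25, Batf by 0.02 ± 0.22, Eomes by 0.31 ± 0.63 and Tbx21 (T-bet) by -0.13 ± 0.45. Maf was at 8.12, 0.978, 9.27 and 11 CPM in DKO and 3.80, 1.22 and 0.847 CPM in yfp libraries. DKO replicate 2 lay within the yfp range for Maf.

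Of 18 cytotoxic genes, Serpinb6b, an intracellular serpin, was higher and Prf1 lower in every DKO library, near the 4.34% and 4.06% of all genes, with a median log2 difference of 0.16. Prf1, which encodes perforin, was at 495, 249, 425 and 502 CPM in DKO and 637, 538 and 519.7 CPM in yfp libraries. Gzmb was at 1319.9, 922, 664 and 3619 CPM in DKO and 3687, 1478 and 2251 CPM in yfp libraries, and Gzma at 8.09, 7.06, 14.3 and 567 CPM in DKO and 36.6, 4.45 and 5.32 CPM in yfp. Both granzymes were highest among DKO libraries in replicate 4, and both overlapped between the groups.

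The receptor chains through which IL-10 and IL-35 act were present in both genotypes. Il10ra was at 140.4 to 236 CPM in DKO and 113 to 250.2 CPM in yfp, and Il10rb at 57.8 to 97.0 CPM in DKO and 92.4 to 117 CPM in yfp. Il12rb2, an IL-35 and IL-12 receptor chain, was at 66.9, 80.2, 67.3 and 121 CPM in DKO and 64.5, 66.0 and 34.9 CPM in yfp libraries. It was the only 1 of 17 genes of this pathway list whose groups separated, by a narrow gap, near the 4.34% of all genes higher. Il6st (gp130) was at 8.72 to 18.9 CPM in DKO and 6.34 to 22.4 CPM in yfp, and Il27ra at 90.1 to 162 CPM in DKO and 70.2 to 105 CPM in yfp. Socs3, the feedback inhibitor that STAT3 induces, was at 3.94 to 13.9 CPM in DKO and 1.29 to 9.25 CPM in yfp libraries. None of these passed edgeR's test.

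Of 12 genes of the common gamma chain cytokine receptors, 2 were higher in every DKO library, against 4.34% of all genes here and for the lists that follow: Il2ra, the high-affinity IL-2 receptor chain, and its signal transducer Stat5a. Il2ra was at 195, 147, 290.1 and 125 CPM in DKO and 69.5, 77.6 and 36.9 CPM in yfp libraries, and Stat5a at 76.6, 76.4, 98.3 and 52.4 CPM in DKO and 38.7, 38.4 and 20.1 CPM in yfp. Of 19 trafficking genes, 5 were higher and 0 lower: Ccr7, S1pr1, Ccr8, Itgae and Itgb1, of which Ccr7 and S1pr1 are also in the memory list. Ccr8, the receptor for Ccl1, was at 154, 83.8, 142 and 52.4 CPM in DKO and 19.1, 41.8 and 29.1 CPM in yfp libraries. Of 18 survival and death genes, 3 were higher, among them Bcl2l1, which encodes Bcl-xL, at 47.7, 61.1, 49.2 and 42.4 CPM in DKO and 20.8, 23.4 and 11.6 CPM in yfp libraries. Bcl2l1 was called higher by DESeq2 and the 60-library fit, with an edgeR adjusted p of 0.627.

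Of 15 killer lectin-like receptors, Klre1 and Klrk1 (NKG2D) were lower in every DKO library, against 4.06% of all genes, and 0 were higher. The differences of this list were positive for 8 and negative for 7 genes, with a median of 0.42. DESeq2 called 1 of the 15, Klrb1b, higher in DKO (adjusted p = 0.0141), though its groups overlapped. Of 24 glycolysis and hypoxia genes, 4 were higher, against 4.34% of all genes, and 0 lower: Pfkl, Pgam1, Pkm and Slc16a3. Of 28 proliferation genes, 25 had a negative difference, with a median of -0.14, and only Stmn1 was lower in every DKO library. Of 21 T cell receptor signalling genes, Cd6 was higher and Cd3g lower, and of 22 heat shock and unfolded protein genes, Herpud1 was higher and Hsp90b1 lower. Oxidative phosphorylation had 1 of 30 higher (Sdha), ribosomal proteins 1 of 24 lower (Rps6), and the 12 TNF receptor costimulators and 19 cholesterol synthesis genes had 0 in either direction. Set against 4.34% of all genes higher and 4.06% lower, 1 gene in lists of this size is near the background. Of the genes listed, 15 of 16 inhibitory receptors, 19 of 20 trafficking genes, 15 of 20 killer lectin-like receptors, 20 of 21 immediate early genes and 27 of 28 interferon genes were tested. Every gene of the other lists was tested, apart from lists of cell type markers. Of those, 6 of 8 CD8 T cell, 3 of 10 B cell, 13 of 20 myeloid and 5 of 8 NK cell markers were tested.

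The single knockouts give the same genes in the same sorted population. The comparisons of DKO, Il10 and Ebi3L with yfp share the 3 yfp libraries, so their values are only set side by side. Wdfy1 was at 14.9 to 29.1 CPM in DKO, 82.7 and 82.0 CPM in Il10, 36.4, 29.1 and 18.4 CPM in Ebi3L, and 73.2 to 89.6 CPM in yfp libraries. For Wdfy1 the Ebi3L libraries lay near those of DKO, and the Il10 libraries lay within the yfp range. Cd9 was at 92.8 to 150.1 CPM in DKO, 84.1 and 43.1 CPM in Il10, 183, 249.6 and 366 CPM in Ebi3L, and 31.6 to 76.2 CPM in yfp libraries, so that its highest levels were those of Ebi3L.

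Sytl1 was at 31.3 to 41.1 CPM in DKO, 33.0 and 34.3 CPM in Il10, 15.6, 10.6 and 16.1 CPM in Ebi3L, and 4.95 to 13.7 CPM in yfp libraries. Here the Il10 libraries lay among those of DKO. Tcf7 was at 4.57 to 34.4 CPM in DKO, 1.25 and 2.10 CPM in Il10, 1.02, 0 and 16.1 CPM in Ebi3L, and 0.229 to 1.81 CPM in yfp libraries. Csf2 was at 188 to 1186 CPM in DKO, 227 and 18.9 CPM in Il10, 12.1, 49.6 and 1627 CPM in Ebi3L, and 30.1 to 57.0 CPM in yfp libraries. Within the DKO range lay Ebi3L replicate 3 for Tcf7 and Il10 replicate 1 for Csf2, while Ebi3L replicate 3 exceeded it for Csf2. Tested directly, DKO minus Ebi3L gave 0 of 12943 genes by edgeR (570, or 4.4%, at an unadjusted p under 0.05, 58 by DESeq2). DKO minus Il10 gave 0 (334, or 2.58%, at an unadjusted p under 0.05, 88 by DESeq2). Wdfy1 had an edgeR adjusted p of 0.316 in DKO minus Il10, with a log2 difference of -2.07 ± 0.31.

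**Figure D4:**
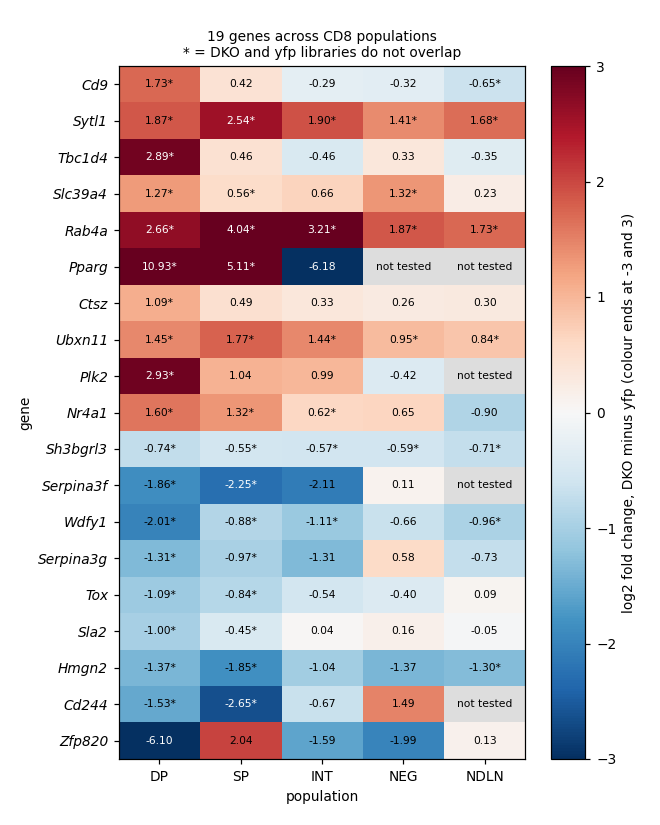
Log2 difference, DKO minus yfp (colour and number), of 19 of the 20 genes with the smallest p-values in DP cells (down) in the 5 sorted CD8 populations (across), each fitted within its population; an asterisk marks groups of libraries that do not overlap. Sytl1, Rab4a and Ubxn11 are higher with an asterisk in all 5, Cd9 is 1.73 in DP and -0.65 in NDLN cells, and the numbers for Pparg are fitted values with no yfp read in DP cells, not bounds.

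The same genotypes were sorted into 4 other CD8 populations: SP, INT (PD-1 intermediate, TIM-3 negative) and NEG (negative for both) from tumours, and NDLN from the non-draining lymph node. Within each, DKO minus yfp by edgeR called 0 genes in SP, NEG and NDLN and 1 in INT (0.00775% of 12909), where Rab4a rose in DKO with an adjusted p of 0.00298. At an unadjusted p under 0.05 there were 973 genes (7.34% of those tested) in SP, 735 (5.69%) in INT, 354 (2.84%) in NEG and 526 (4.26%) in NDLN. Of the 20 genes with the smallest p-values in DP cells, Sytl1, Rab4a and Ubxn11 were higher and Sh3bgrl3 was lower in every DKO library in all 5 populations, and Wdfy1 was lower in 4 of 5. Sytl1 was at 39.8 to 49.3 CPM in DKO and 4.11 to 27.3 CPM in yfp lymph node cells, which come from outside the tumour. Tox separated the groups in DP and SP cells only of the 5, and Tbc1d4, Ctsz and Plk2 in DP cells only.

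Csf2 and Ccl1 also separated the groups in SP cells, with Csf2 at 179 to 352 CPM in DKO and 48.1 to 105 CPM in yfp, and Ccl1 at 124 to 259 CPM in DKO and 16.8 to 103 CPM in yfp. Slamf6 separated them in DP cells but not in SP cells, where it was at 206 to 297 CPM in DKO and 171 to 214 CPM in yfp. Whether a genotype difference was itself larger in DP cells was tested by an interaction with the source of the cells as a block. The source was read as the genotype within a library set, since the labels name no animal or tumour. The interaction called 0 of 13869 genes against SP, 0 of 13805 against INT and 0 of 13788 against NEG by edgeR, and 4, 23 and 11 by DESeq2. At an unadjusted p under 0.05 edgeR gave 270 (1.95%), 574 (4.16%) and 430 genes (3.12%). Cd9 differed by 1.27 ± 0.32 (log2) between its DP and SP effects, by 2.13 ± 0.34 between its DP and INT effects and by 2.17 ± 0.37 between its DP and NEG effects, with edgeR adjusted p-values of 1, 0.17 and 0.431.

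Of the 20 genes, 19 had a unique position in mm10, and 4 of these, Sytl1, Hmgn2, Ubxn11 and Sh3bgrl3, lie within 875.7 kb of chromosome 4 (133253090 to 134128789). Of 34 tested genes up to 1000 kb to either side of Sh3bgrl3, 10 (29.4%) separated the groups, 4 higher and 6 lower in DKO, against 4.34% and 4.06% of all genes, and 7 (20.6%) had an unadjusted p under 0.05, against 5.25% of all genes. Of the 10, 5 separated them in the same direction in lymph node cells. Ubxn11 on the plus strand and Sh3bgrl3 on the minus strand overlap by 188 bases. No source used here states the strand setting of the counting, so reads of that overlap could belong to either gene. The window was chosen after the values were seen, around genes ranked by p, so its shares are a description.

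**Figure D5:**
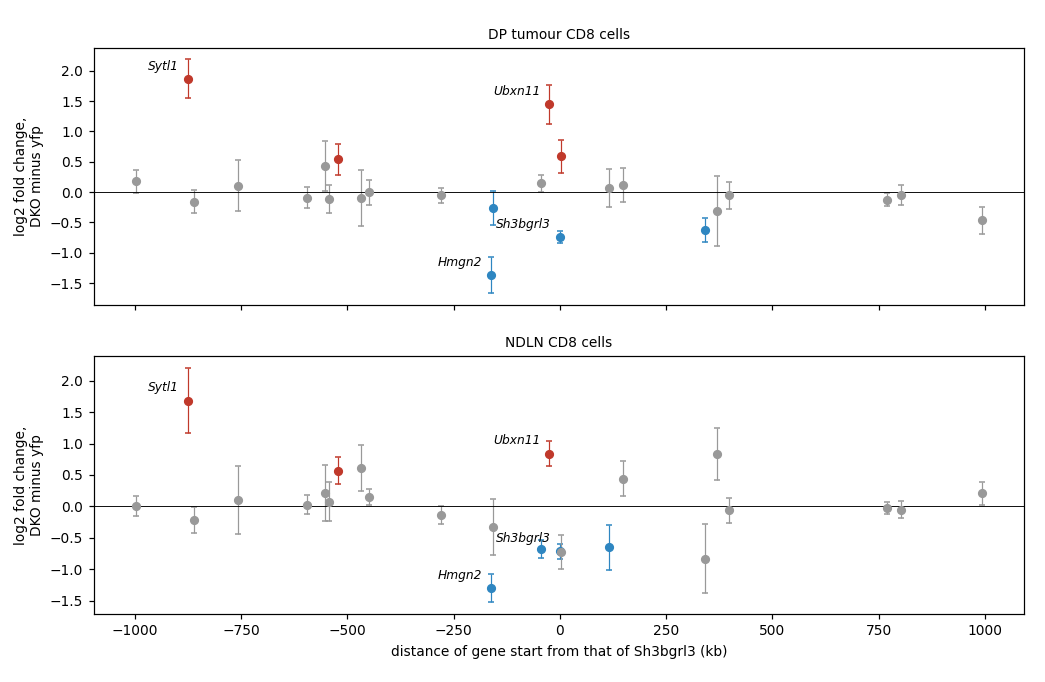
Log2 difference, DKO minus yfp, in DP cells (upper panel) of 25 genes with a mean of at least 5 CPM against their distance in kb from the start of Sh3bgrl3, with SE bars. Sytl1 (1.87) and Ubxn11 (1.45) lie above and Hmgn2 (-1.37) and Sh3bgrl3 (-0.74) below the line of no difference; the lower panel gives the same genes in NDLN cells. Red and blue mark genes higher or lower in every DKO library.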

How the data were processed

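Bulk RNA-seq gene counts of 60 CD8 libraries were used, of which 12 are DP. Per the submitters' processing notes, the authors' tools included STAR, featureCounts (Subread) and limma with mm10, in versions and an order not given in the sources used here. The deposited counts of 23420 genes are whole reads per gene with no normalization; the authors also deposited log2 expression values of 10150 genes, used in an alternative, and a Treg log2 table, not used here. 0 columns belonged to no sample.

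The fit was edgeR 4.0.16 (R 4.3.3), quasi-likelihood with robust estimation, on the 12 DP libraries with genotype and batch, trimmed-mean scaling and the filterByExpr filter, two-sided, with Benjamini-Hochberg adjustment at 0.05. Differences are log2 with their SE. Levels are CPM from the trimmed-mean library sizes. Alternatives used DESeq2 1.42.0 and limma 3.58.1, and the tests were also run on simulated data. A count of 3 reads equals 0.0857 to 0.105 CPM in the 7 libraries. It and the errors cover counting and the spread between libraries only. No pair of replicates agreed within sampling noise (chi-square per gene 66.9 to 469, genes with at least 20 reads). Libraries carry a library set number. Same-set libraries of 2 genotypes did not deviate together in every pair, so the sets were not taken as pairs.

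As no gene passed, the 10 smallest p-values in each direction were taken, of which 1 is not reported here, with a set list of exhaustion, effector and receptor genes. Genes of the lists whose groups do not overlap, Cd81 and the chromosome 4 window were chosen after their values were seen. So were Il10, Ebi3, Il12a, Foxp3, Cd4 and Il3, and the list genes Xcl1 and Klrb1b, whose groups overlap. The comparison, the genes and the lists were chosen with earlier results of these data known.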

Additional observations from a re-analysis of the deposited data

Results flagged for a closer look

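Of 145 measures tested in the 4 DKO libraries, 16 held a library far from the other 3. For normally distributed values chance gives such a gap in about 1 in 20 groups. Most of the measures are CPM on a linear scale and many are related, so that rate need not hold here. DKO replicate 3 was the highest library for Tnf (58.9 CPM), Il2 (146 CPM), Tnfsf11 (114 CPM), Cd40lg (53.9 CPM), Il10 (49.7 CPM) and Il3 (183 CPM). It was also highest for the summed myeloid markers (859.9 CPM), the summed memory list (3161 CPM, of which Xcl1 made up 1822 CPM) and the second axis of a multidimensional scaling of the 12 libraries (4.12). DKO replicate 4 was highest for Gzma (567 CPM), S1pr1 (26.1 CPM) and Cd14 (0.628 CPM) and lowest for Psme2 (432 CPM). DKO replicate 2 was highest for Zfp820 (0.682 CPM) and Cd4 (1.04 CPM) and lowest for Cd3g (761 CPM).

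For 2 genes the groups separated in opposite directions in different populations. Cd9 was higher in all DKO libraries in DP cells and lower in all of them in NDLN cells, with a log2 difference of -0.65 there. Itgb1, an integrin chain, was higher in DP cells and lower in INT cells (-0.42) and NDLN cells (-0.78). The difference of these effects from that in NDLN cells was not tested.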

How the results depend on the processing

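The count of 0 genes between DKO and yfp DP cells became 128 with DESeq2, 49 with limma-voom over 60 libraries, 4 without a filter on low counts (Serpina3f, Sh3bgrl3, Wdfy1 and Sytl1), 2 with voom sample weights and 1 with the 7 libraries fitted alone with batch (Scin). Leaving out 1 of the 7 DKO and yfp libraries at a time gave 0 in every case. The Il10 and Ebi3L libraries were not left out singly for this comparison. Leaving out DKO replicate 3 and Ebi3L replicate 3 together gave 2 (Cables1 and Dsc2). DKO against Ebi3L gave 58 with DESeq2 and 0 to 1 when leaving out a DKO or Ebi3L library, the 1 (Dsc2) without Ebi3L replicate 3. DKO against Il10 gave 88 with DESeq2 and 2 without a filter. The interactions gave 4, 23 and 11 with DESeq2 against SP, INT and NEG. With the library set as a replicate block, DKO against yfp gave 0 genes, with 225 at an unadjusted p under 0.05; same-set pairs correlated at -0.32 to 0.32. Within batch 1, 13 rather than 4 immediate early genes separated the groups, a count that fewer libraries can only keep or raise. The sample weights, the 60-library fit, the joint omission, the list counts and the list medians were added after the data were seen.

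Of 1008 alternative log2 differences for 46 named genes, 935 kept their direction and side of the threshold, 41 newly passed it and 32 reversed. No gene passed in the main fit, so no value could lose the threshold. For the same reason, the reversals were all of differences that did not pass. Without a batch term they were -0.00271 for Lag3, -0.39 for Batf and 0.00047 for Tbx21 with 12 libraries, and -0.00284, -0.39 and 0.000744 with 7. Lag3 was -0.31 under the replicate block, -0.30 in the joint omission, -0.16 with sample weights and -0.0535 with the deposited log2 values and batch. Ctla4 was -0.0347 with the 7 libraries and batch, -0.0414 within batch 1 and -0.000502 with the deposited values and batch. Batf was -0.00325 with upper quartile scaling, -0.032 with the deposited values and batch and -0.0425 over 60 libraries, and Eomes was -0.0233 with the deposited values and batch. With the deposited values and no batch, Tigit was 0.10 and Prdm1 0.0166. Leaving out 1 of the 7 DKO and yfp libraries gave -0.25 to 0.40 for Ctla4, -0.14 to 0.18 for Batf and -0.44 to 0.20 for Prdm1. The same omissions gave -1.31 to 0.0453 for Gzmb, -0.0791 to 0.15 for Lag3 and -0.10 to 0.69 for Eomes. They gave -0.069 to 6.02 for Gzma and -0.29 to 0.0566 for Tbx21. The causes were not tested. Precision is limited by 4 DKO and 3 yfp libraries, of which 1 DKO and 1 yfp library are alone in their batch in the comparison. Genes near the level of 3 reads, such as Il2 in yfp, cannot be given a fold.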
